A study of Mus musculus with 20 samples.

Results

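The passage of Cxxc1-null spermatocytes from pachytene to diplotene was described by comparing 2 diplotene with 2 pachytene RNA libraries, both made from mutant cells. A gene entered the description when it reached 1 FPKM (fragments per transcript length and library size) in at least 2 of these 4 libraries. This held for 11185 of the 23235 genes in the table, or 48.1%. Of these, 9465 reached that level in all 4 libraries, 568 only in both pachytene libraries, 216 only in both diplotene libraries, and 936 in another combination. All 11185 were among the 12956 genes tested.

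Cells came from testes of adult male mice, all on a C57BL/6 background, of the WT or the Cxxc1-null genotype. They were isolated by fluorescence-activated sorting, and 500 cells were used for each RNA library, made by Smart-seq2, in which whole transcripts are copied from an oligo-dT primer. The RNA samples form 6 groups of 2 (WT or Cxxc1-null, each at pachytene, diplotene and meiosis II), and the 8 H3K4me3 chromatin samples that are also listed were not analysed here. The part of Cxxc1 that was deleted, the Cre driver if one was used, and whether replicate libraries are from different animals are not given in the sources used here. P-values thus reflect library to library spread alone, and that spread may be technical. Because each library is a pool of cells, fewer cells of a type and less RNA per cell cannot be told apart.

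In pachytene, homologous chromosomes are held together along their length by the synaptonemal complex while meiotic breaks are repaired and crossovers are designated. In diplotene the complex comes apart and homologues stay joined at crossovers, and the cell prepares for the first division. Mouse spermatocytes also begin at this time to transcribe many genes that are needed later, in the round and elongating spermatid. CXXC1 binds unmethylated CpG dinucleotides and is a subunit of the SETD1 complexes, which methylate histone H3 at lysine 4, a mark of active promoters.

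The targeted gene was read first. Cxxc1 stood at 9.19 and 9.57 FPKM in Cxxc1-null pachytene and at 9.57 and 8.29 FPKM in Cxxc1-null diplotene. The WT values were 11.7 and 17.3 FPKM in pachytene and 13.7 and 17.6 FPKM in diplotene. All 4 mutant libraries lay below all 4 WT libraries. Between the mutant stages the libraries overlapped, and the log2 change of -0.07 ± 0.25 did not pass the test (limma adjusted p = 0.86). Here and below ± is a standard error for 2 against 2 libraries, with the spread pooled over all 6 groups of RNA libraries. Since the deleted part is not stated, FPKM over the whole transcript does not measure the deletion itself.

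Between 10149 and 11074 genes reached 1 FPKM in each of the 4 mutant libraries. Replicates correlated across genes at r = 0.976 in pachytene and 0.970 in diplotene, and libraries of different stage at 0.914 to 0.938. Diplotene replicate 2 stood apart: its correlation with the WT meiosis II mean was 0.891, against 0.843 for diplotene replicate 1. The spermatocyte genes Sycp3, an axial element component, and Ldhc, the testis form of lactate dehydrogenase, were abundant in all 4 libraries, at 442 FPKM or more and 7824 FPKM or more. Sertoli cell genes were uneven: Sox9 and Wt1 were under 1 FPKM in all 4, while Cst12 was at 29.1 and 44.6 FPKM and Clu at 18.5 and 19.0 FPKM in mutant pachytene.

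Between pachytene and diplotene, 1507 genes rose and 2139 fell in Cxxc1-null cells, while 7539 did not pass the test (limma on log2(FPKM + 1), adjusted p under 0.05). That is 13.5% and 19.1% of the genes described, beside 11.9% higher and 17.4% lower among all 12956 genes tested. The calls of each gene list below are to be read beside these shares. Of the called genes, 946 rose and 1326 fell by at least 2-fold on the scale of log2(FPKM + 1), where low genes appear to change less than they do. In all 3646 called genes the libraries of the stages did not overlap. With 2 libraries per group a call all but requires this, so it adds no support. Of all tested genes 31.0% were separated upward and 38.6% downward. The median log2 change over the genes described was -0.09, and 41.3% of the calls were upward. This split moved to 51.0% upward under quantile normalization and to 55.2% when libraries were scaled to a common median. A gene under 1 FPKM in both libraries of a stage could enter only through the other stage, so its direction was largely fixed. In diplotene 568 genes were so low, and in pachytene 216. Stra8, Sohlh2, Crabp1, Cenpa, Cpeb1, Hprt, Hccs, Aard, Ccdc152, Sun2, Pisd-ps3, Pisd-ps1, Sln and Gsta4, named below, are among them, and their changes are a description. Counting only genes at 1 FPKM or more in all 4 libraries left 2884 calls.

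The number of calls rested on all 4 libraries. It was 2321 without pachytene replicate 1, 421 without pachytene replicate 2 (57 higher and 364 lower), 1209 without diplotene replicate 1 and 1918 without diplotene replicate 2. The same direction was called in each of these 4 fits for 392 genes, of which 52 rose and 340 fell. A call described below as held with any library left out belongs to these 392. Of the 32 gene lists described below, 12 had 0 genes called higher, with 4 of their genes higher at an unadjusted p under 0.05, and 6 had 0 called lower, with 1 lower at that level.

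**Figure D1:**
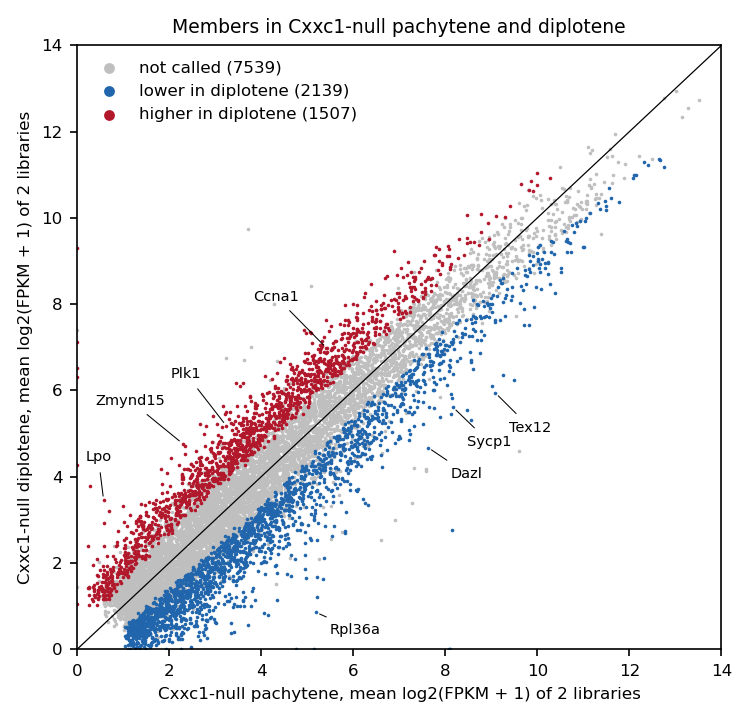
Each point is 1 of 11185 genes, with the mean log2(FPKM + 1) of the 2 Cxxc1-null pachytene libraries on the horizontal axis and that of the 2 diplotene libraries on the vertical axis. The 1507 genes that rose lie above the line of equality and the 2139 that fell lie below it, and labels mark 8 genes named in the text, such as Rpl36a and Tex12 among those that fell.

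Short RNA and clone-named genes were left out in ranking the 12 largest changes in each direction. Among the increases, Zmynd15, a transcriptional repressor of the male germ line, was at 5.41 and 2.72 FPKM in pachytene and 25.9 and 26.6 FPKM in diplotene (log2 change 2.48 ± 0.44, limma adjusted p = 0.0058). Lpo, the gene of lactoperoxidase, was listed at 0 and 1.21 FPKM in pachytene and at 12.4 and 7.92 FPKM in diplotene (2.88 ± 0.45, limma adjusted p = 0.0042). Thop1, a cytosolic oligopeptidase, was at 11.7 and 8.28 FPKM and then at 70.8 and 72.4 FPKM (2.74 ± 0.52, limma adjusted p = 0.0070). In these 3 genes both diplotene libraries were several times above both pachytene libraries. The ammonium transporter gene Rhcg rose by log2 2.45 ± 0.49, Trp53i11 by 2.39 ± 0.44, the testis calpain gene Capn11 by 2.37 ± 0.45, Prr19 by 2.56 ± 0.57, Flywch1 by 2.57 ± 0.55, Nkiras2 by 2.55 ± 0.67, Aspscr1 by 2.36 ± 0.55 and the pyruvate dehydrogenase kinase gene Pdk2 by 2.46 ± 0.60. Only Lpo of these 11 held its call with any library left out (limma adjusted p 0.017 to 0.032). The largest of the 12 was that of Pisd-ps3, whose near-identical copy Pisd-ps1 was among the largest decreases, so that both values are uncertain, and neither call held with any one library left out.

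The 12 largest decreases were deeper. Polr2h, a subunit shared by the nuclear RNA polymerases, was at 29.4 and 31.4 FPKM in pachytene and 2.26 and 2.05 FPKM in diplotene, so 7.08% of the pachytene mean was left (log2 change -3.32 ± 0.30, limma adjusted p = 0.0013). Tmem126b, an assembly factor of respiratory complex I, was at 36.7 and 44.3 FPKM and then at 4.00 and 2.78 FPKM (-3.25 ± 0.31). Psme2, a subunit of the PA28 proteasome activator, was at 17.1 and 21.3 FPKM and then at 0.555 and 2.13 FPKM (-3.19 ± 0.39). The stages were far apart in each, while the diplotene replicates of Psme2 also differed. Rpl36a fell by log2 4.33 ± 0.43 and Mif by 4.00 ± 0.47, but both have near-identical processed copies in the genome, so these values are uncertain. Hemt1 (-3.24 ± 0.49), Zfp820 (-3.24 ± 0.55), Ccdc152 (-3.35 ± 0.56) and the cystatin gene Cst12 (-3.54 ± 0.56) also fell, as did Tex12 and Prm1, described below. Of the 12, all but Prm1 and Pisd-ps1 held their calls with any library left out.

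Genes of the synaptonemal complex fell together. Of 9 measured members 8 fell and 0 rose, with a median log2 change of -1.82 against -0.09 over all genes described. Sycp1, which encodes the transverse filament that bridges the paired axes, was at 264 and 310 FPKM in pachytene and 45.4 and 50.7 FPKM in diplotene (log2 change -2.55 ± 0.33, limma adjusted p = 0.0022). Tex12, a central element component, was at 563 and 523 FPKM and then at 65.7 and 55.8 FPKM (-3.14 ± 0.48, limma adjusted p = 0.0039). Sycp1 kept 16.7% and Tex12 11.2% of the pachytene mean, with replicates close together in both stages. 4930447C04Rik, the central element gene also called Six6os1, fell by log2 3.14 ± 0.34 and Fkbp6, a co-chaperone found on the complex, by 2.15 ± 0.21. These 4 genes held their calls with any library left out. Sycp3, of the lateral element, was at 1342 and 1575 FPKM and then at 477 and 442 FPKM (-1.66 ± 0.37, limma adjusted p = 0.012), so it remained abundant. Its call held only in the omission of pachytene replicate 1 (limma adjusted p 0.037, and up to 0.089 without pachytene replicate 2). The list kept fewer calls without pachytene replicate 2, with a median log2 change of -1.62. The summed level of the list was 4100 and 4480 FPKM in pachytene and 1830 and 1800 FPKM in diplotene.

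The start regions of Sycp1 and Tex12, which fell, and of the cell cycle genes Ccna1 and Plk1, which rose, are shown because CXXC1 binds CpG. Each window runs from 250 bases before to 50 bases after the RefSeq transcription start (GRCm38.p6, 300 bases, strand of the gene), with every CpG in capitals. The windows are chr3:102936051-102936350 (minus strand) for Sycp1, chr9:50561219-50561518 (minus) for Tex12, chr3:55055006-55055305 (minus) for Ccna1 and chr7:122159185-122159484 (plus) for Plk1.
Sycp1: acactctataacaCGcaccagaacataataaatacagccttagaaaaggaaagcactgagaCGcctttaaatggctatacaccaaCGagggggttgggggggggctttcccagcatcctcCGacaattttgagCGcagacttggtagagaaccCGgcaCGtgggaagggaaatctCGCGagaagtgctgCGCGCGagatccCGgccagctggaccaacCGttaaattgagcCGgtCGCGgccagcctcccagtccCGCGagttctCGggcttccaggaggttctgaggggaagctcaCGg
Tex12: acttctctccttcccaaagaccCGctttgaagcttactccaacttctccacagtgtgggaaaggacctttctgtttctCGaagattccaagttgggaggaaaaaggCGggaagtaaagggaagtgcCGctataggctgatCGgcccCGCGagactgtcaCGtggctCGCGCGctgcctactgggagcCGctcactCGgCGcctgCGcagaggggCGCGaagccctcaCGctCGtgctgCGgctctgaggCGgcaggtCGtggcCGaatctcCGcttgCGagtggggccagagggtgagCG
Ccna1: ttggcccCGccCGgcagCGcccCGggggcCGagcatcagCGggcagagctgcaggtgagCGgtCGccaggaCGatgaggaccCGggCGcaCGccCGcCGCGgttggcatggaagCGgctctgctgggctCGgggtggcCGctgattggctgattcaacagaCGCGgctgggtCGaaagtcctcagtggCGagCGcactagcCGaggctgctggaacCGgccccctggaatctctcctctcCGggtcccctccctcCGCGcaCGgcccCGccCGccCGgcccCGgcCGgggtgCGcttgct
Plk1: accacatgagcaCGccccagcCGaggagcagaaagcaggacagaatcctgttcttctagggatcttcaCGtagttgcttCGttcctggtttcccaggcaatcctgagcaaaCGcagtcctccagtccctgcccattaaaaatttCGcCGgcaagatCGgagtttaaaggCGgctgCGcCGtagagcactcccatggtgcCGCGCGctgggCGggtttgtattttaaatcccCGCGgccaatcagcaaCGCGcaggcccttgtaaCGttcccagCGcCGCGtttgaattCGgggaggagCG
Sycp1 has 21 CpGs, Tex12 26, Ccna1 35 and Plk1 25, where the 27025 promoters of the RefSeq table have a median of 7 (quartiles 3 and 21). Both the falling and the rising genes shown are thus CpG-rich. CCAAT, searched on both strands, is present in Ccna1 and Plk1 and in 37.9% of all promoters. The cyclic AMP response element TGACGTCA (1.88% of all promoters) and the X-box core GTTGCCA (4.46%), also searched on both strands, are in none of the 4 windows. Motif shares over the rising and falling genes were not compared, since a promoter was found for only 8909 of the 11185 genes.

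In the list of division kinases, cyclins and anaphase-promoting complex factors, 8 of 32 genes rose and 5 fell, with a median of 0.32. Plk1, the polo-like kinase that drives complex disassembly and entry into division, was at 10.4 and 6.84 FPKM in pachytene and 39.7 and 31.3 FPKM in diplotene (log2 change 1.94 ± 0.37, limma adjusted p = 0.0071). Ccna1, the germ cell cyclin A that male meiosis requires, was at 53.2 and 32.6 FPKM and then at 138 and 115 FPKM (1.57 ± 0.29, limma adjusted p = 0.0062). Gsg2, which encodes the histone H3 kinase haspin, was at 96.0 and 82.4 FPKM and then at 295 and 243 FPKM (1.58 ± 0.29, limma adjusted p = 0.0063). Diplotene libraries were roughly 3 to 4 times as high, and stages did not overlap. All 3 calls were lost without pachytene replicate 2 (limma adjusted p 0.071, 0.062 and 0.061, each the highest of the 4 omissions), and the list then held 0 higher and 1 lower. Aurkc, a meiotic Aurora kinase gene, was at 60.1 and 37.7 FPKM and then at 79.8 and 75.3 FPKM, just short of the threshold (0.69 ± 0.24, limma adjusted p = 0.052). In the spindle and kinetochore list 2 of 24 genes rose and 1 fell (8.33% and 4.17%, beside 13.5% and 19.1% of all genes described). The fall was that of Cenpa, the centromeric histone H3 variant, at 4.57 and 2.70 FPKM in pachytene and 0.232 and 0.186 FPKM in diplotene (-1.91 ± 0.20, limma adjusted p = 0.0014). This call held with any library left out, though Cenpa met the filter only through pachytene.

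**Figure D2:**
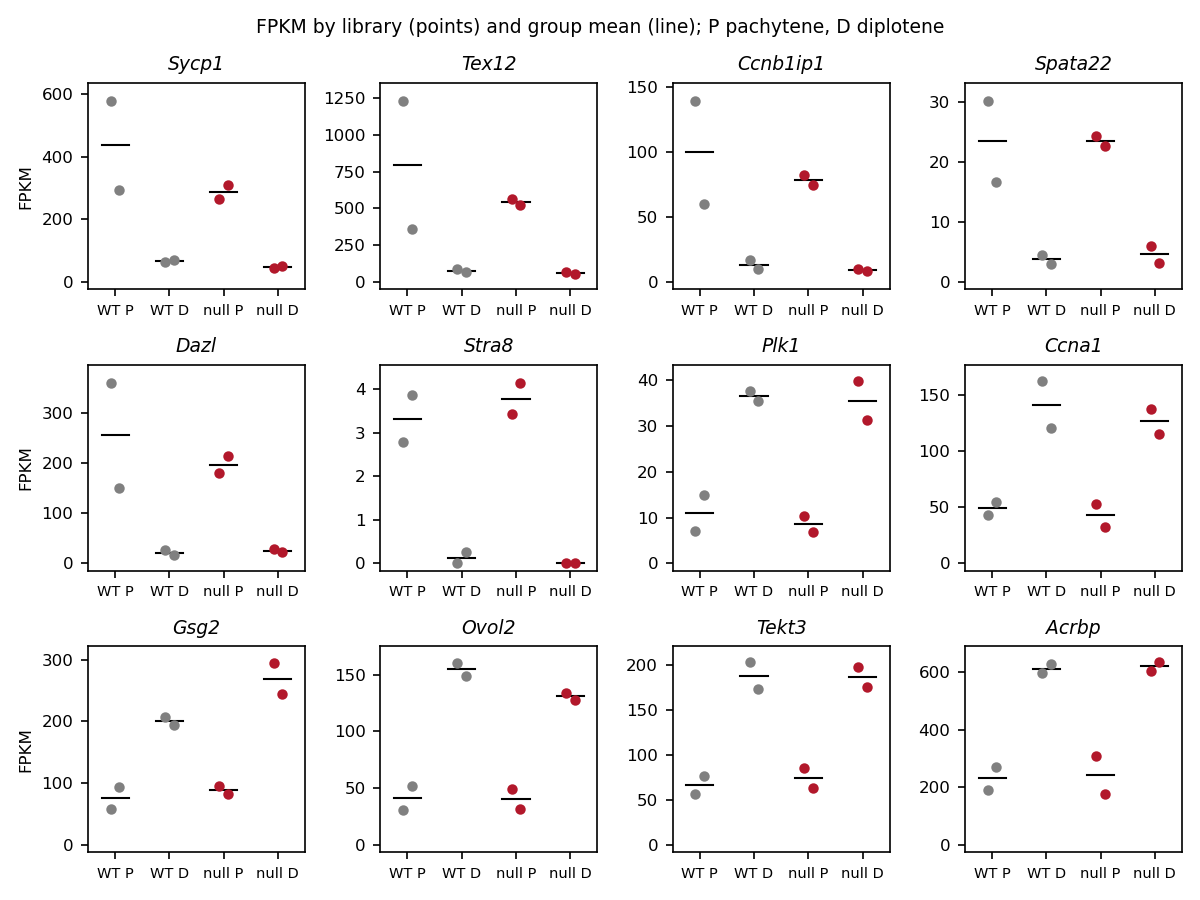
FPKM of 12 genes in each pachytene (P) and diplotene (D) library, WT in grey and Cxxc1-null in red, with a line at the group mean. Sycp1, Tex12, Ccnb1ip1, Spata22, Dazl and Stra8 are lower, and Plk1, Ccna1, Gsg2, Ovol2, Tekt3 and Acrbp higher, in both diplotene libraries of each genotype than in both of its pachytene libraries.

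Among 22 strand exchange genes, 10 fell and 1 rose (median -0.48), and 3 of the falls were called without pachytene replicate 2. Spata22, a partner of MEIOB on single-stranded DNA, was at 24.3 and 22.6 FPKM in pachytene and 6.03 and 3.22 FPKM in diplotene (log2 change -2.17 ± 0.34, limma adjusted p = 0.0042). Rpa3, the smallest subunit of replication protein A, was at 70.5 and 75 FPKM and then at 10.2 in both diplotene libraries (-2.72 ± 0.46), and Rpa2, its middle subunit, fell by log2 1.20 ± 0.22. Calls of these 3 genes held with any library left out. Mnd1, an accessory factor of the recombinase DMC1, fell by log2 2.62 ± 0.53, with a limma adjusted p of 0.0085 that became 0.063 without pachytene replicate 2.

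In the crossover list 4 of 12 genes fell and 1 rose, and the median of -0.10 turned to 0.02 under common median scaling. Ccnb1ip1, also called Hei10, the ubiquitin ligase that marks crossover sites, was at 82.3 and 74.5 FPKM in pachytene and 9.80 and 8.68 FPKM in diplotene (-2.96 ± 0.36, limma adjusted p = 0.0018), held with any library left out. This gene is also in the division list. Hfm1, a meiotic helicase gene, was at 35.4 and 36.4 FPKM and then at 13.8 and 10.3 FPKM (-1.51 ± 0.26, limma adjusted p = 0.0056), and its call was lost without pachytene replicate 2 (0.052), when the list held 1 call. The replicates of both genes were close, and neither overlapped between stages.

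Of 6 genes of break formation 3 fell, 0 rose and the median was -0.49. Hormad1, which marks unsynapsed axes, was at 916 and 887 FPKM in pachytene and 227 and 145 FPKM in diplotene (-2.31 ± 0.49, limma adjusted p = 0.0097), Hormad2 fell by 1.57 ± 0.42 and Trip13, the ATPase that removes HORMADs from axes, by 0.84 ± 0.26. Spo11, which makes the meiotic breaks, was at 192 and 160 FPKM and then at 193 and 131 FPKM, overlapping between stages (-0.14 ± 0.34, limma adjusted p = 0.78). No call of this list was left without pachytene replicate 2 or without diplotene replicate 2. Of 16 genes of cohesin and its regulators 2 fell and 1 rose (12.5% and 6.25%, beside 19.1% and 13.5% of all genes described, median -0.36), the falls being the shugoshin gene Sgol1 (-1.21 ± 0.21) and Stag1 (-1.21 ± 0.21), and 0 calls were left without pachytene replicate 2. Among 8 genes of telomere attachment 2 rose and 1 fell, and Sun2, a nuclear envelope protein, went from 0.426 and 0.694 FPKM to 2.93 and 2.65 FPKM (1.28 ± 0.20, limma adjusted p = 0.0042), held with any library left out.

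Of 21 genes of spermatogonia and of entry into meiosis in the table, 11 met the 1 FPKM filter. Of these 11 genes 9 fell and 0 rose (median -1.19), although 1 rose under quantile normalization and common median scaling. Stra8, which meiotic entry requires, was at 3.43 and 4.15 FPKM in pachytene and listed at 0 in both diplotene libraries. Sohlh2, a spermatogonial transcription factor gene, was at 7.76 and 4.73 FPKM and then at 0.0921 and 0.328 FPKM (log2 change -2.56 ± 0.27, limma adjusted p = 0.0014). Crabp1, a retinoic acid binding protein gene, was at 5.20 and 6.44 FPKM and then at 0.245 and 0.262 FPKM (-2.44 ± 0.24, limma adjusted p = 0.0013). These genes were low but measurable in pachytene and near 0 in diplotene, and the 3 calls held with any library left out. All 3 met the filter only through pachytene, where they are high, so their falls are a description. Dmrt1, the regulator of the mitosis to meiosis switch, fell by log2 1.61 ± 0.33 but not without pachytene replicate 2 (limma adjusted p = 0.079, from 0.019 over the 4 omissions), when 3 calls of the list were left.

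Among 26 genes of RNA binding and translational control 7 fell and 3 rose (median -0.20), and 1 rise and 3 falls were called without pachytene replicate 2. The list's shares of 26.9% lower and 11.5% higher stand beside 19.1% and 13.5% of all genes described. Dazl, a translational activator in germ cells, was at 181 and 213 FPKM in pachytene and 27.7 and 21.8 FPKM in diplotene (log2 change -2.95 ± 0.37, limma adjusted p = 0.0020). Cpeb1, which controls polyadenylation in the cytoplasm, fell from 3.83 and 3.97 FPKM to 0.205 and 0.389 FPKM (-1.92 ± 0.18), and Paip2b, an inhibitor of poly(A)-binding protein, fell by log2 2.02 ± 0.27. Pabpc2, a testis poly(A)-binding protein gene, was at 166 and 138 FPKM and then at 467 and 393 FPKM (1.49 ± 0.24, limma adjusted p = 0.0042). These 4 calls held with any library left out. Pabpc1, the general cytoplasmic poly(A)-binding protein gene, did not pass (0.14 ± 0.24, limma adjusted p = 0.69).

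In the piRNA pathway, which silences transposons in germ cells, 4 of 18 genes fell and 2 rose (median -0.50). These 22.2% and 11.1% lie near the 19.1% and 13.5% of all genes described. Asz1, of the intermitochondrial cement, was at 110 and 94.9 FPKM in pachytene and 34.4 and 24.7 FPKM in diplotene (log2 change -1.77 ± 0.32, limma adjusted p = 0.0060), held with any library left out. Piwil2, also called Mili, fell by log2 1.24 ± 0.21 (limma adjusted p = 0.0051, 0.055 without pachytene replicate 2). Tdrd6, of the chromatoid body, was at 33.1 and 27.2 FPKM and then at 64.3 and 83.2 FPKM (1.26 ± 0.26, limma adjusted p = 0.0091, 0.081 without pachytene replicate 2 and 0.053 without diplotene replicate 2). Piwil1, also called Miwi, was at 129 and 185 FPKM and then at 107 and 129 FPKM, touching between stages (-0.39 ± 0.23, limma adjusted p = 0.22). Without pachytene replicate 2 the list held 1 call.

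Among 32 flagellum and axoneme genes 14 rose and 0 fell, with a median of 0.77. Dnaic2, an outer dynein arm chain, was at 4.07 and 3.68 FPKM in pachytene and 16.5 and 14.6 FPKM in diplotene (log2 change 1.76 ± 0.29, limma adjusted p = 0.0045). Tekt3, a tektin of the flagellar microtubules, was at 84.9 and 63.0 FPKM and then at 198 and 175 FPKM (1.33 ± 0.22, limma adjusted p = 0.0045). Tekt5 rose by log2 1.43 ± 0.28 and Dnali1, a dynein light chain gene, by 1.25 ± 0.25. Both stages were well apart in each gene, but only Dnaic2 held with any library left out. Without pachytene replicate 2 the list had 1 higher and 0 lower, without diplotene replicate 1 7 higher and 0 lower, and without diplotene replicate 2 6 higher and 1 lower.

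Of 25 acrosome and gamete fusion genes 6 rose and 0 fell, yet the median of 0.03 was near that of all genes. Acrbp, the proacrosin-binding protein, was at 308 and 177 FPKM in pachytene and 606 and 636 FPKM in diplotene (log2 change 1.41 ± 0.27, limma adjusted p = 0.0074). Acr, acrosin itself, was at 126 and 109 FPKM and then at 274 and 284 FPKM (1.24 ± 0.29, limma adjusted p = 0.013), and Spata16, needed to form the acrosome, rose by log2 1.28 ± 0.26. All of these roughly doubled or more. None was called without pachytene replicate 2, when the list had 0 calls, and without diplotene replicate 2 it had 4 higher and 4 lower. In the CatSper calcium channel 2 of 8 genes rose, Catsper2 from 100 and 89.6 FPKM to 161 and 187 FPKM (0.87 ± 0.19, limma adjusted p = 0.011) and Tmem146, the delta subunit, by log2 1.17 ± 0.29. Catsper1, the pore subunit, was at 0.966 and 1.86 FPKM and then at 0.993 and 5.07 FPKM, overlapping between stages (0.55 ± 0.48, limma adjusted p = 0.41). Neither CatSper call was left without pachytene replicate 2.

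The list of protamines and transition proteins, which replace histones in spermatids, also holds H1fnt, Hils1, Spem1 and Kdm3a. Of its 9 measured genes 4 fell, namely Prm1, Prm2, Tnp1 and Tnp2, and 0 rose (median -1.25). Prm1 was at 909 and 577 FPKM in pachytene and 29.5 and 185 FPKM in diplotene (log2 change -3.27 ± 0.78, limma adjusted p = 0.015). Prm2 was at 369 and 208 FPKM and then at 15.8 and 111 FPKM (-2.68 ± 0.77), and Tnp1 and Tnp2 fell by log2 2.33 ± 0.74 and 2.19 ± 0.70. Diplotene replicate 1 was the lowest library for each of the 4, and diplotene replicate 2 lay between it and pachytene. The 4 calls were lost without either pachytene library or without diplotene replicate 1 (Prm1 limma adjusted p 0.071 to 0.083), and 7 of the 9 genes were called lower without diplotene replicate 2 (Prm1 0.011). The summed level of the list was 2210 and 1510 FPKM in pachytene, 182 and 873 FPKM in diplotene, and 1780 and 4380 FPKM in Cxxc1-null meiosis II. In WT cells it was 2350 and 2080 FPKM in pachytene, 427 and 868 FPKM in diplotene, and 7180 and 10600 FPKM in meiosis II. The presence of this RNA in pachytene libraries, and its part in the other falls, was not tested.

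Of 23 transcriptional regulators of the spermatid programme 5 rose and 4 fell, and the median of 0.06 turned to -0.24 without diplotene replicate 2. These 21.7% and 17.4% stand beside the 13.5% and 19.1% of all genes described. Ovol2 was at 48.9 and 31.3 FPKM in pachytene and 134 and 128 FPKM in diplotene (log2 change 1.71 ± 0.29, limma adjusted p = 0.0050, 0.052 without pachytene replicate 2). Pou5f2, a POU factor of the testis, was at 50.3 and 28.3 FPKM and then at 133 and 112 FPKM (1.66 ± 0.27, limma adjusted p = 0.0047), held with any library left out. Taf4b, a germ cell TFIID subunit gene, fell from 2.58 and 4.62 FPKM to 0.706 and 1.08 FPKM (-1.25 ± 0.24, limma adjusted p = 0.0074, 0.067 without pachytene replicate 2 and 0.052 without diplotene replicate 1). Crem, the activator of spermatid genes, was at 171 and 154 FPKM and then at 137 and 140 FPKM, lower in both diplotene libraries but within the error of the fit (-0.23 ± 0.24, limma adjusted p = 0.49).

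**Figure D3:**
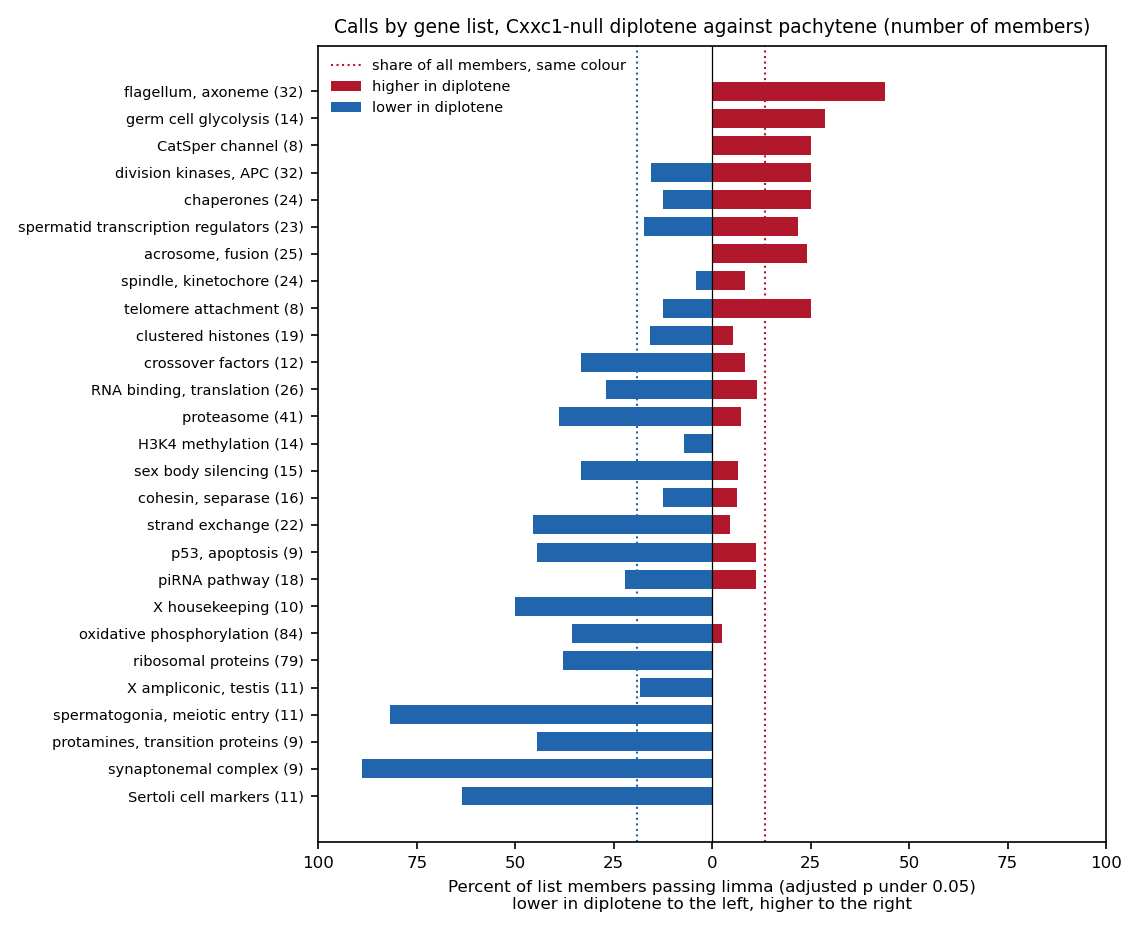
Percent of the members of each gene list (lists of 8 or more, number in brackets) that rose (red, to the right) or fell (blue, to the left) between Cxxc1-null pachytene and diplotene, ordered by median log2 change. Dotted lines mark the 13.5% of all genes described that rose and the 19.1% that fell, and the flagellum list reaches 43.8% higher and the synaptonemal complex list 88.9% lower.

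Of 84 oxidative phosphorylation genes 30 fell and 2 rose, with a median of -0.73. Ndufa1, a complex I subunit, was at 456 and 577 FPKM in pachytene and 60.4 and 75.4 FPKM in diplotene (log2 change -2.91 ± 0.38, limma adjusted p = 0.0022). Atp5g2, of the ATP synthase ring, was at 171 and 195 FPKM and then at 31.2 and 41.6 FPKM (-2.31 ± 0.29, limma adjusted p = 0.0020), and Cycs, the somatic cytochrome c gene, was at 16 FPKM in both pachytene libraries and then at 2.54 and 2.14 FPKM (-2.35 ± 0.35). Each fell to a small part of its pachytene level. These 3 calls held with any library left out, whereas the list had 4 lower without pachytene replicate 2, 6 without diplotene replicate 1, 14 without diplotene replicate 2, 19 without pachytene replicate 1, and 17 under common median scaling, but 50 with a replicate block. Of 14 germ cell glycolysis genes 4 rose and 0 fell (median 0.64), and none was called without pachytene replicate 2 or without diplotene replicate 1. Pfkp, a platelet-type phosphofructokinase, went from 22.6 and 13.9 FPKM to 55.6 and 38.5 FPKM (1.33 ± 0.36, limma adjusted p = 0.022). Pgk2, the autosomal substitute for X-linked phosphoglycerate kinase, was at 206 and 153 FPKM and then at 229 and 251 FPKM, higher in both diplotene libraries without passing the test (0.43 ± 0.23, limma adjusted p = 0.18). Ldhc was at 8862 and 7828 FPKM and then at 7892 and 7824 FPKM, close in all 4 libraries (-0.08 ± 0.24, limma adjusted p = 0.81).

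Of 79 ribosomal protein genes 30 fell, 0 rose and 49 did not pass (median -0.82). Rpl22 was at 101 and 152 FPKM in pachytene and 22.5 and 35.1 FPKM in diplotene (log2 change -2.10 ± 0.40, limma adjusted p = 0.0071, 0.071 without pachytene replicate 2). The count depended on the libraries and the scaling, with 20 lower without pachytene replicate 1, 1 without pachytene replicate 2, 2 without diplotene replicate 1 and 11 without diplotene replicate 2, and 12 under common median scaling, but 54 with a replicate block. Ribosomal protein genes have many near-identical processed copies, so their values are uncertain. Of 41 proteasome genes 16 fell and 3 rose (median -0.24), and 1 fall was called without pachytene replicate 2. Psma2, of the core particle, went from 516 and 564 FPKM to 206 and 188 FPKM (-1.45 ± 0.29, limma adjusted p = 0.0076), and Psme1, the partner of Psme2 in the PA28 activator, from 4.77 and 5.90 FPKM to 0.852 and 1.09 FPKM (-1.68 ± 0.30, limma adjusted p = 0.0057). Both were lost without pachytene replicate 2 (0.067 and 0.055). Among 24 chaperone genes 6 rose and 3 fell (median 0.12), with 0 and 1 left without pachytene replicate 2. The mitochondrial pair fell: Hspe1 was at 71.8 and 80.3 FPKM and then at 8.41 and 10.8 FPKM (-2.86 ± 0.33, limma adjusted p = 0.0018), held with any library left out, and Hspd1, its partner, fell by log2 1.77 ± 0.35 (limma adjusted p = 0.0077, 0.051 without pachytene replicate 2).

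X-linked genes are silenced in the sex body of the spermatocyte. Of 236 X-linked genes 76 (32.2%) fell and 0 rose, with a median of -0.76. Of the X-linked genes 28 had a positive change, and 1 was higher at an unadjusted p under 0.05. Among 10862 autosomal genes 1500 (13.8%) rose and 2043 (18.8%) fell, with a median of -0.07. No X-linked gene rose under quantile normalization (60 fell) or common median scaling (74 fell). The number that fell was 56 without pachytene replicate 1, 13 without pachytene replicate 2, 31 without diplotene replicate 1 and 96 without diplotene replicate 2, with 0 risers in each. Hprt, a purine salvage gene, was at 3.48 and 5.90 FPKM in pachytene and 0 and 0.0614 FPKM in diplotene (log2 change -2.43 ± 0.24, limma adjusted p = 0.0013), and Hccs, the haem lyase of cytochrome c, was at 1.01 and 1.52 FPKM and then at 0.121 and 0.0323 FPKM (-1.06 ± 0.15, limma adjusted p = 0.0031). Both were close to 0 in diplotene, both are among the 5 of 10 X-linked housekeeping genes that fell while 0 rose (median -0.57), and both calls held with any library left out. Both also met the 1 FPKM filter only through pachytene. The X-linked sum was 2770 and 3170 FPKM in pachytene, 938 FPKM in diplotene replicate 1 and 2010 FPKM in diplotene replicate 2. Of the diplotene libraries, replicate 2 thus carried the higher X-linked level, still below both pachytene libraries. The cause was not tested.

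On the Y chromosome 1 of 3 listed genes fell, the translation factor gene Eif2s3y (-1.03 ± 0.24, limma adjusted p = 0.013, up to 0.097 over the omissions). Of 11 testis-specific X genes 2 fell and 0 rose (median -1.15). Cypt1, a cysteine-rich spermatid gene, was at 54.3 and 78.1 FPKM in pachytene, 10 FPKM in diplotene replicate 1 and 40.9 FPKM in diplotene replicate 2 (log2 change -1.62 ± 0.63, limma adjusted p = 0.079). The list had 9 calls without diplotene replicate 2 and 0 without any one of the other 3 libraries. Cpxcr1 was at 8.74 and 8.64 FPKM and then at 1.37 and 4.19 FPKM (-1.47 ± 0.36, limma adjusted p = 0.016, from 0.013 to 0.098 over the omissions, and lost in all but that of diplotene replicate 2). Of 15 genes that set up the sex body 5 fell and 1 rose (median -0.35), 1 of them called without pachytene replicate 2. Topbp1, which activates the kinase ATR on unsynapsed axes, was at 26.2 and 31.5 FPKM and then at 9.29 and 10.5 FPKM (-1.45 ± 0.23, limma adjusted p = 0.0043), held with any library left out. Cbx3, the heterochromatin protein HP1 gamma, was at 202 and 232 FPKM and then at 64.0 and 63.5 FPKM (-1.75 ± 0.33, limma adjusted p = 0.0066, 0.062 without pachytene replicate 2).

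Of the H3K4 methylation machinery in which CXXC1 acts, 1 of 14 genes fell and 0 rose (median -0.26). This was Kdm5a, an H3K4 demethylase, at 13.3 and 11.2 FPKM in pachytene and 5.96 and 4.76 FPKM in diplotene (log2 change -1.06 ± 0.23, limma adjusted p = 0.010), a call that only the omission of diplotene replicate 1 left in place (0.038 to 0.057). The SETD1 subunit gene Dpy30 was at 182 and 171 FPKM and then at 80.9 and 118 FPKM (-0.85 ± 0.31, limma adjusted p = 0.064). Ash2l, another core subunit gene, was at 114 and 85.9 FPKM and then at 188 and 140 FPKM (0.71 ± 0.27, limma adjusted p = 0.074). The stages were separate in both genes but neither passed. Quantile normalization gave 2 higher and 2 lower in this list, and common median scaling 2 higher and 1 lower.

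Markers of other testis cells were read in the same libraries. Of 11 measured Sertoli cell genes 7 fell and 0 rose (median -1.99), 4 of them in every omission of 1 library. Ctsl, the secreted protease cathepsin L, was at 27.4 and 20.9 FPKM in pachytene and 2.91 and 1.71 FPKM in diplotene (log2 change -2.94 ± 0.31, limma adjusted p = 0.0014). Aard was at 6.10 and 3.98 FPKM and then at 0.633 and 0.369 FPKM (-1.99 ± 0.33, limma adjusted p = 0.0050). Cst12 was at 29.1 and 44.6 FPKM and then at 4.04 and 1.03 FPKM. The summed Sertoli list was 139 and 156 FPKM in mutant pachytene and 30.2 and 15.6 FPKM in mutant diplotene, and 107 and 90.9 FPKM and then 24.7 and 16.9 FPKM in WT cells. It therefore moved with stage in the same direction as the falling gene groups above, and its part in those falls was not tested. The Sertoli, Leydig, peritubular, endothelial and blood, and protamine lists, of 11, 2, 4 and 9 measured genes, together hold 12 of the 3646 called genes. That number is bounded by the length of the lists. It does not measure how much RNA of other cells adds to the calls. Of 2 Leydig genes 1 fell, Star (-0.92 ± 0.19), and 0 of 4 peritubular, endothelial and blood genes passed limma (1 was lower at an unadjusted p under 0.05), as was the case under quantile normalization, common median scaling and each omission of 1 library. Of 19 clustered histone genes 3 fell and 1 rose (15.8% and 5.26%, beside 19.1% and 13.5% of all genes described, median -0.06). The calls of this list were lost without pachytene replicate 2. Among 9 p53 and apoptosis genes 4 fell and 1 rose (median -0.50), led by Trp53inp1 from 15.1 and 20.6 FPKM to 5.70 and 4.88 FPKM (-1.57 ± 0.23, limma adjusted p = 0.0033), the only call left without pachytene replicate 2. Of 7 stress response genes 1 rose, Gadd45b (0.99 ± 0.28, limma adjusted p = 0.027), a call lost in each of the 4 omissions (0.055 to 0.14).

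**Figure D4:**
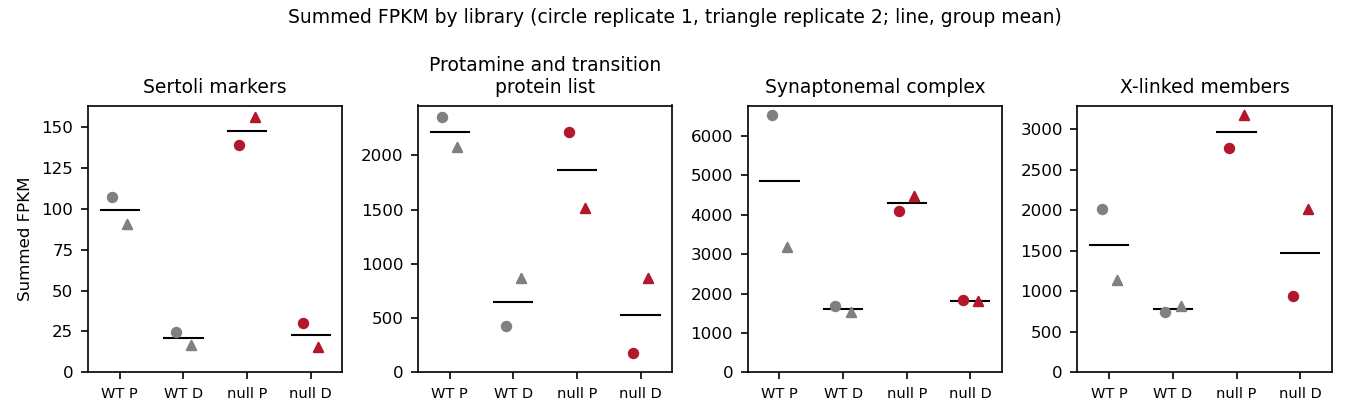
Summed FPKM of 4 gene sets in each pachytene (P) and diplotene (D) library, WT in grey and Cxxc1-null in red, circles for replicate 1, triangles for replicate 2 and a line at the group mean. Sertoli markers fall from 139 and 156 to 30.2 and 15.6 FPKM in mutant cells, and the X-linked sum of mutant diplotene replicate 2 (2010) lies above that of replicate 1 (938).

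The stage change in the mutant was then set beside that in WT cells, which share no library with it. In WT cells 1152 of the same 11185 genes rose and 2111 fell, beside 9.08% higher and 17.4% lower among all tested genes. Either direction was called in 26.5% of tested genes in WT cells and 29.3% in the mutant. Of the genes described, 884 rose in both genotypes, 1685 fell in both and 0 were called in opposite directions. These 2569 shared calls are 70.5% of the mutant calls and 78.7% of the WT calls. Both sets of calls come from 1 fit in which a gene has the same error in each genotype. The calls are therefore not independent, and a small error favours a call in both. Across genes, which are not independent replicates, the log2 changes of the genotypes correlated at r = 0.863. Another 1077 genes were called in the mutant and not in WT cells, but 1054 of these had the same sign in WT cells, and passing in 1 genotype does not show a difference. WT pachytene replicate 2 stood apart: its correlation with the WT diplotene mean was 0.955, against 0.915 for WT pachytene replicate 1. Of the WT libraries, leaving out pachytene replicate 1 took the WT count from 3263 to 1414, pachytene replicate 2 to 3948, diplotene replicate 1 to 1715 and diplotene replicate 2 to 1283, and a fit of the WT libraries alone gave 2 calls.

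The difference itself passed in 3 genes, 0.0232% of those tested, all of them short RNA genes that met the 1 FPKM filter only through mutant diplotene. Without short RNA genes 0 passed. Of the genes described, 219 had an unadjusted p under 0.05. Its median standard error was 0.38 on the log2 scale, against 0.27 for a stage change, so a difference had to be larger to pass. Sycp1 differed by 0.05 ± 0.47, Tex12 by 0.00 ± 0.68, Plk1 by 0.21 ± 0.53, Ccna1 by 0.07 ± 0.40 and Dazl by 0.47 ± 0.53 (mutant change minus WT change, limma adjusted p of 1 for each). No difference was detected in these genes, though the errors leave room for one. The WT pachytene replicates themselves were uneven, at 580 and 294 FPKM for Sycp1 and 1230 and 360 FPKM for Tex12. Among longer transcripts the smallest p was that of Sln, the gene of sarcolipin, at 2.52 and 2.24 FPKM in mutant pachytene, 0 and 0.222 FPKM in mutant diplotene, and 0 in all 4 WT libraries (difference -1.61 ± 0.26, limma adjusted p = 0.30). Next came Gsta4, a glutathione transferase gene, at 6.21 and 5.11 FPKM and then 0.349 and 0.280 FPKM in the mutant, and 1.59 and 1.39 FPKM and then 0.755 and 0.438 FPKM in WT cells (-1.69, limma adjusted p = 0.51). Neither passed the test. Among the 4 mutant libraries both genes reached 1 FPKM only in pachytene, so the direction of their mutant change was largely fixed by the filter. With Sln at 0 in all 4 WT libraries, the direction of its difference was fixed too, and its values are a description.

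**Figure D5:**
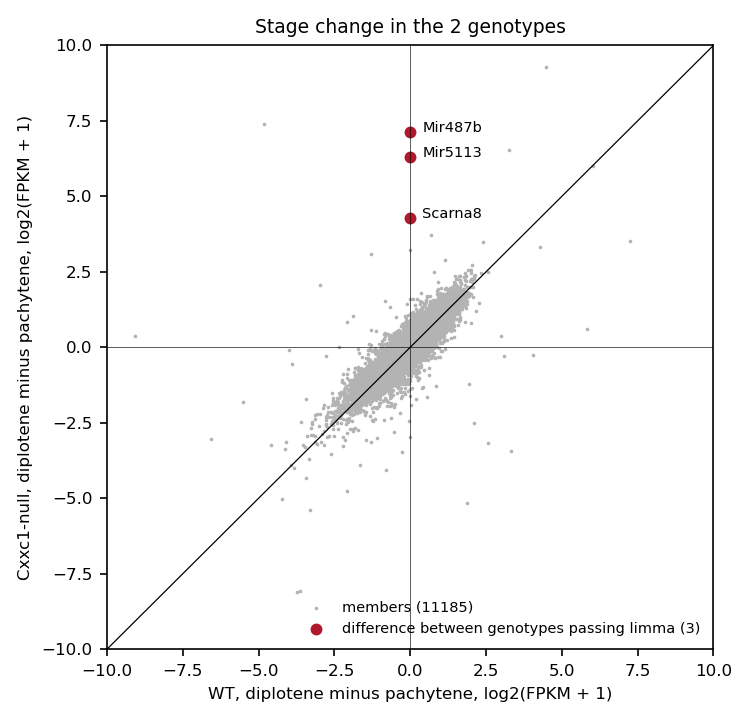
Diplotene minus pachytene change on the log2(FPKM + 1) scale in WT (horizontal) and Cxxc1-null cells (vertical) for 11185 genes, with the line of equality. Most genes lie along the line (r = 0.863), and the 3 genes whose difference passed limma, Mir487b, Mir5113 and Scarna8, stand above it with no change in WT cells.

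The 3 genes that passed are short RNA genes, a microRNA pair and a small Cajal body RNA. Mir487b was at 189 and 101 FPKM in mutant diplotene, Mir5113 at 85.2 and 73.1 FPKM and Scarna8 at 17.7 and 18.9 FPKM. Each was listed at 0 in the other 10 libraries, so no fold is given, and a gene that enters the test only through the group where it is high had to differ: these values are a description. The table has 1 value for each hairpin gene and does not separate its arms. The mature sequences below are those RefSeq gives for the 2 microRNA genes (GRCm38.p6, chr12:109727347-109727367 and chr15:80940049-80940071, both plus strand), printed with the seed, bases 2 to 8, in capitals to show that the seeds differ.
mmu-miR-487b-5p: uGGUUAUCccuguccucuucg
mmu-miR-5113: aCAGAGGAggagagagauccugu
Libraries primed with oligo-dT are not designed to capture mature microRNAs. Of 65 short RNA genes described, 6 rose and 7 fell in the mutant, beside 13.5% and 19.1% of all genes described. With short RNA genes left out before the fit, 0 differences passed limma, and 208 had an unadjusted p under 0.05.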

How the data were processed

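The authors deposited 1 table of FPKM values for 23235 genes in 12 RNA libraries. The mm9 build, Cufflinks 2.2.1 and TopHat2 2.1.1 are named in the submitters' processing notes, without the role of each. FPKM is not a count, so no count test was run. Sequencing depth was not known here. Samples were grouped by title.

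From these values log2(FPKM + 1) was computed, and the 12956 genes that reached 1 FPKM in 2 or more of the 12 libraries were tested. All 12 libraries entered 1 model with a mean per group (limma 3.58.1, R 4.3.3, 6 residual degrees of freedom, mean-variance trend), with Benjamini-Hochberg adjustment over all tested genes at 0.05. Contrasts were diplotene minus pachytene in each genotype and their difference. Log2 changes are ± standard error with 2 libraries per group. The error uses a spread pooled over the 6 groups, so a gene has the same error in both genotypes. Tables and figures were made with Python 3.11.15, pandas 2.3.3 and matplotlib 3.10.9.

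The genes described and the 32 gene lists were chosen with earlier results of these data known. Named genes are the 12 largest called changes in each direction without short RNA and clone-named genes, up to 4 smallest p-values per list, the 10 smallest p-values of the difference, and 12 reference genes. Chromosomes and promoters were matched by symbol to RefSeq (GRCm38.p6, a different build), with a chromosome for 22993 genes. Strand use in counting is not stated, which leaves overlapping and antisense genes uncertain. Alternatives were another pseudocount (0.1), no filter or 5 FPKM, quantile and common median scaling, separate fits, a replicate block, no trend, no short RNA genes, and omission of libraries.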

Additional observations from a re-analysis of the deposited data

Results flagged for a closer look

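Mir487b, Mir5113 and Scarna8 stood out because their stage change differed between the genotypes by the test of the difference itself (limma adjusted p 7.5e-06, 5.2e-07 and 3.1e-06). Each is listed at 0 in every library but the 2 from mutant diplotene and met the 1 FPKM filter only through them, so these p-values support no difference between the genotypes.

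Insl3, a Leydig cell hormone gene, stood out because its libraries separated in opposite directions. It was at 26.7 and 46.0 FPKM in mutant pachytene and 10.1 and 20.7 FPKM in mutant diplotene, and at 5.22 and 25 FPKM and then 34.7 and 65.6 FPKM in WT cells. The log2 change was -1.21 ± 0.83 in the mutant and 1.94 in WT cells, and the difference of -3.15 ± 1.18 did not pass (limma adjusted p = 1).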

How the results depend on the processing

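The replicate numbers are not said to pair the libraries; with a replicate block 4787 genes were called in the mutant and 4437 in WT cells, and deviations of same-numbered libraries correlated at 0.116 to 0.42 over the 6 pairs of stages. Omission of 1 library gave 421 to 2321 mutant calls, 1283 to 3948 WT calls and 3 to 5 differences. A fit of the WT libraries alone gave 2 calls, where a fit of the mutant libraries alone gave 3282. In the fit of all 12 libraries, 0 differences passed limma with short RNA genes left out. The cause of the dependence on single libraries was not tested.

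Of 122 named genes called in the mutant, 0 reversed in any setting. The stages did not overlap in any called gene, so omission of a library could not reverse one. That part of the result was fixed in advance and adds no support. Of the named genes not called, some changed sign in log2 change. With each library left out in turn, Catsper1 ranged from -0.251 to 1.356, Zfy2 from -0.464 to 0.195, Dcn from -1.783 to 0.095, Cxxc1 from -0.16 to 0.027, Spo11 from -0.42 to 0.136 and Ldhc from -0.173 to 0.005. Without mutant diplotene replicate 2 and WT pachytene replicate 2 together, Catsper1 was at -0.251, Cxxc1 at 0.027 and Spo11 at 0.136. Common median scaling gave 0.052 for Cxxc1 and 0.047 for Ldhc, and quantile normalization gave 0.084 for Zfy2 and 0.639 for Ldhc. Other settings gave 2810 to 4787 mutant calls. With 2 libraries per group and unknown depth, small changes of low genes were not detectable.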
